A study of Mus musculus with 16 samples.

Results

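The Gimap genes code for the GTPases of immunity-associated proteins, a family of small GTP-binding proteins. The 8 members described here, *Gimap1*, *Gimap3*, *Gimap4*, *Gimap5*, *Gimap6*, *Gimap7*, *Gimap8* and *Gimap9*, were taken by name from the 24984 genes of the count tables and followed in all 16 RNA-seq libraries. No other gene symbol in the tables starts with Gimap. The family was selected on its kidney values, in particular those of the fourth control kidney, so comparisons of treatments in the kidney, and the interaction that contains them, are descriptions here. Counts of calls are given for them only beside those of all genes, and tests bear on the liver and on the difference between tissues. The latter also contains the kidney values that chose the family, so its p-values carry that limit. It is therefore given with and without the fourth control kidney. The study asked how lowering *Fos*, which codes for a subunit of the transcription factor AP-1, changes the kidney and liver of old mice. Wild-type female C57BL/6 mice received AAV8, a vector made from adeno-associated virus, through the tail vein, and both organs were taken 3 months later. The labels give an age of 24 months, which the methods give as the age at injection. Its cargo was a short hairpin RNA, either one that targets *Fos* (shFos) or a non-targeting one (NT), and there were 4 kidney NT, 4 kidney shFos, 4 liver NT and 4 liver shFos libraries. NT mice therefore also carried the virus and a hairpin, and no uninjected group of this age was analysed here. The promoter that drove the hairpin and the cell types that took up the vector are not given in the sources used here, and neither is whether a kidney and a liver with the same replicate number came from one mouse.

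Gimap proteins are made mainly in lymphocytes, where they sit on membranes of the endoplasmic reticulum, Golgi, lysosomes or lipid droplets and act on survival. *Gimap1* and *Gimap5* are needed for peripheral T and B cells to persist, and loss of *Gimap5* leads to lymphopenia and liver disease. *Gimap3* is the closest relative of *Gimap5*, both have been linked to proteins of the Bcl2 family, *Gimap4* promotes the death of T cells, and *Gimap6* binds Gabarapl2, a protein of the autophagosome. Some members, *Gimap5* among them, are also made in endothelial cells.

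All 8 genes lie together on chromosome 6 of mm10 (GRCm38), within chr6:48647234-48770851, a stretch of 123618 bases. In order along the chromosome they are *Gimap8*, *Gimap9*, *Gimap4*, *Gimap6*, *Gimap7*, *Gimap1*, *Gimap5* and *Gimap3*, with *Gimap6* and *Gimap3* on the minus strand and the other 6 on the plus strand. The distance between neighbours ran from 2401 bases (*Gimap1* to *Gimap5*) to 15253 bases (*Gimap8* to *Gimap9*). In GENCODE M21, 36.0% of the exon bases of *Gimap1* are shared with the antisense gene *Gimap1os* and a readthrough transcript, and counting did not use strand, so the *Gimap1* counts are uncertain. *Gimap3* and *Gimap5* share 1.65% and 0.966% of their 100-base stretches with each other, and reads from those stretches match both genes.

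Promoter sequences of all 8 genes were found in RefSeq for GRCm38.p6, 9 promoters in all because *Gimap8* has a pair of starts. Each covers 250 bases before the start and 50 from it on. They were searched on both strands for AP-1 (TGANTCA), the cAMP response element (TGACGTCA), an ETS motif (CCGGAA), PU.1 (GAGGAA) and RUNX (TGTGGT), none of which overlapped another in these windows. The letters of PU.1, a factor of B and myeloid cells, and of RUNX, a family that acts in T cells, were both found in *Gimap4*, *Gimap7* and *Gimap1*, and in no other Gimap promoter. Over all 32851 RefSeq promoters, 28.3% held the PU.1 letters and 16.8% the RUNX letters. The AP-1 letters were in 0 of the 9 promoters and in 7.81% of all promoters, and the cAMP response element and ETS letters were also in 0 of 9, against 1.79% and 14.9% of all. A loose kappaB motif was in 5 of the 9 promoters and in 50.8% of all. The promoters of the 3 genes that hold both motifs are shown with the PU.1 and RUNX letters of either strand in capitals, followed by that of *Gimap3*, the member that differed most between NT and shFos kidneys, which holds neither. They are written 5′ to 3′ on the strand of the gene, which starts after the first 250 bases. They span chr6:48684328-48684627 (plus strand) for *Gimap4*, chr6:48718371-48718670 (plus strand) for *Gimap7*, chr6:48738797-48739096 (plus strand) for *Gimap1* and chr6:48770802-48771101 (minus strand) for *Gimap3*.
Gimap4: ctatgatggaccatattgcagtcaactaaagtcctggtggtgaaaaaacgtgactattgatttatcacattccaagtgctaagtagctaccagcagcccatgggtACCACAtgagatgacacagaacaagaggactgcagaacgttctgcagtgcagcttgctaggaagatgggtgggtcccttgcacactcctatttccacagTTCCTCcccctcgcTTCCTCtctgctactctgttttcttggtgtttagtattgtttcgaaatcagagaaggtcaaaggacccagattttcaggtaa
Gimap7: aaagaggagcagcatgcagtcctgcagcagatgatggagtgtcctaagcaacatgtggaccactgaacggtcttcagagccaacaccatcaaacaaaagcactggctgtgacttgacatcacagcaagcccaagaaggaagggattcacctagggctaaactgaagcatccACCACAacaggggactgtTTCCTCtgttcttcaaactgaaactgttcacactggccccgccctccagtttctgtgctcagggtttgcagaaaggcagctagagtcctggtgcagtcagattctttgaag
Gimap1: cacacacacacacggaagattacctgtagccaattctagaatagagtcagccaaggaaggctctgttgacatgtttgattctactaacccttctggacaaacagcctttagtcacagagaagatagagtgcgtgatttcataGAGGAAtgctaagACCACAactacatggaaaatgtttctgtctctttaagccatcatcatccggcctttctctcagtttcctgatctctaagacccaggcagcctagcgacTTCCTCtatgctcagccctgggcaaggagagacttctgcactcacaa
Gimap3: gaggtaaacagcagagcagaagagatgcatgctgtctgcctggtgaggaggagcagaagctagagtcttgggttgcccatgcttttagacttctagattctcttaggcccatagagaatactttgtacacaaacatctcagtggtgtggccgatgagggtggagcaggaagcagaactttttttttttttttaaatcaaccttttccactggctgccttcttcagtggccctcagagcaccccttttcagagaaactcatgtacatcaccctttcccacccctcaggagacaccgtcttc

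Libraries held 14194543 to 15534665 counted reads in the kidney and 16652150 to 18300277 in the liver, so that a count of 0 would allow up to 0.211 and 0.18 CPM. CPM are counts scaled to a common library size, here with edgeR's TMM factors within a tissue. *Fos* was 5.37 ± 1.02 CPM in NT and 3.23 ± 0.929 CPM in shFos kidneys, without overlap between groups, and 2.51 ± 1.08 and 1.82 ± 0.637 CPM in the livers, with overlap (SD, n = 4 each). Such a lack of overlap, with shFos lower, was seen for 8.04% of all kidney genes. *Fos* was not called at an adjusted p under 0.05 in either tissue (edgeR adjusted p = 0.0955 in kidneys and 0.778 in livers). The paper reported lower *Fos* in both organs by RT-qPCR. Kidney tubule markers summed to 12006 to 19051 CPM in kidneys and 1.10 to 2.94 CPM in livers, and hepatocyte markers to 51182 to 197539 CPM in livers and 679 to 2670 CPM in kidneys, so tissue labels and markers went together. Several libraries stood apart by the share of genes below -1 on the log2 scale, against the mean of the other 3 of their group. It was 8.31% in kidney NT replicate 4, 7.41% in liver NT replicate 4 and 6.50% in liver NT replicate 1. Elsewhere it was at most 3.40%. Liver NT replicate 4 had the lowest hepatocyte sum, against 119281 or more in the other 7 livers, and 172.6 summed CPM of neutrophil markers, against 10.1 to 57.9 in the others. Kidney NT replicate 4 is described with the Gimap genes, and results were also computed without each of these libraries.

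In the kidney, 1 of the 4 control libraries had a lower level of every member than the other 7 kidneys. *Gimap4*, the member with the most reads there, was 50.03, 61.7, 63.5 and 15.7 CPM in NT replicates 1 to 4 and 39.3, 49.0, 59.2 and 57.7 CPM in shFos replicates 1 to 4. *Gimap6* was 41.2, 43.1, 45.9 and 25.2 CPM in the NT and 36.8, 44.1, 43.3 and 40.7 CPM in the shFos kidneys. For both genes the other 7 kidneys of the 2 groups overlapped, and NT replicate 4 alone lay below them. *Gimap8*, whose protein has several GTPase domains, was 41.5, 35.8, 40.4 and 18.2 CPM in NT and 35.2, 37.3, 52.6 and 39.6 CPM in shFos kidneys. *Gimap3* was 28.7, 32.0, 29.1 and 7.54 CPM in NT and 13.9, 13.8, 16.7 and 12.7 CPM in shFos kidneys. *Gimap3* had another pattern than these genes, since the shFos kidneys lay between NT replicate 4 and the other 3 NT kidneys and touched neither. *Gimap1* was 13.7, 13.95, 14.3 and 9.54 CPM in NT and 11.1, 9.98, 11.5 and 10.8 CPM in shFos kidneys. It showed the order of *Gimap3* in a smaller range. *Gimap5* was 4.86, 4.92, 5.99 and 3.80 CPM in NT and 6.04, 6.59, 6.29 and 6.07 CPM in shFos kidneys. *Gimap9* was 14.3, 13.9, 15.1 and 11.3 CPM in NT and 14.1, 16.8, 20.3 and 16.2 CPM in shFos kidneys. Every shFos kidney was above every NT kidney for *Gimap5*, by a margin of 6.04 to 5.99 CPM at the nearest libraries, and for *Gimap9* the groups overlapped. *Gimap7*, which hydrolyses GTP as a dimer, had the fewest reads, with 2.76, 4.18, 5.86 and 0.451 CPM in NT and 1.54, 2.46, 4.22 and 2.61 CPM in shFos kidneys. Its count in NT replicate 4 was 7 reads, against 24 to 90 in the other 7 kidneys.

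**Figure D1:**
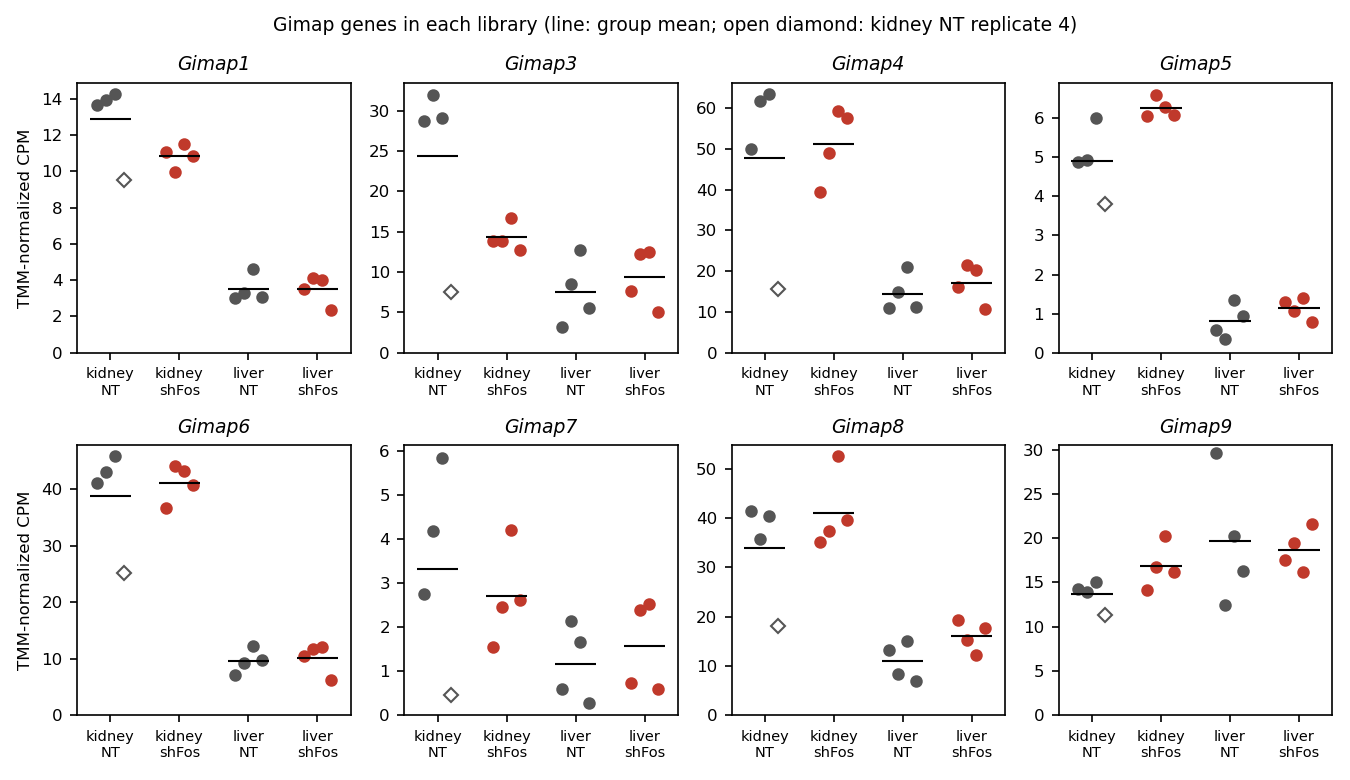
TMM-normalized CPM (y axis, from 0) of each Gimap gene in each of the 16 libraries, by tissue and treatment (x axis). Points are libraries, lines are means of 4, and the open diamond is kidney NT replicate 4, the lowest of the 8 kidneys in all 8 panels.

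Kidney NT replicate 4 was the lowest of the 8 kidneys for 8 of 8 members, where it was the lowest for 27% of the 14892 genes that passed the filter on low counts. Against the mean of NT replicates 1 to 3, it was lower by 2.85 on the log2 scale for *Gimap7*, by 1.97 for *Gimap3* and by 1.88 for *Gimap4*. The value for *Gimap8* was -1.10, for *Gimap6* -0.78, for *Gimap1* -0.54, for *Gimap5* -0.45 and for *Gimap9* -0.34. Its levels ran from 10.6% of the CPM of the other NT kidneys for *Gimap7* and 25.2% for *Gimap3* to 78.7% for *Gimap9*. The median of the members was -0.94, beside a median of -0.0012 over all genes, of which 8.31% were at or below -1. Against the mean of the other 3 of its group, the median of the members lay between -0.25 and 0.41 in each of the other 7 kidneys, and in the livers between -0.77 (shFos replicate 4) and 0.74 (NT replicate 3).

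Markers of several leukocytes moved with the Gimap genes in this library. The 22 T cell markers in the tables (of 25 listed) summed to 18.3 CPM in kidney NT replicate 4, to 71.9 to 117.7 CPM in the other NT kidneys and to 53.9 to 101.3 CPM in the shFos kidneys, and all 22 were lower there than in NT replicates 1 to 3 (median -2.45 on the log2 scale). *Cd4* and *Cd3g*, the highest of the list, were 1.55 and 1.16 CPM there. The 16 pan-leukocyte markers, led by *Laptm5* and *Arhgdib*, summed to 199 CPM against 514 to 633 in the other NT kidneys (all 16 lower, median -2.07). B cell markers were lower for 14 of 15 genes that passed the filter (median -2.30), NK cell markers for 7 of 7 (median -2.24) and macrophage markers for 13 of 14 (median -1.18). Endothelial markers lay closer to the other kidneys, with a sum of 1114 CPM against 1354 to 1389 (16 of 22 lower, median -0.15), and kidney tubule markers had a median of -0.37. Neutrophil markers went the other way, with a sum of 33.1 CPM against 9.66 to 13.95 and 0 of 3 filtered genes lower. Of the remaining lists, the genes lower in this library were 5 of 6 plasma cell markers (median -1.36), 5 of 7 markers of liver sinusoidal endothelium (median -0.43), 2 of 3 genes of lymphoid stroma (median -1.69), 0 of 4 platelet markers (median 0.76), 4 of 9 hepatocyte markers (median 0.27) and 0 of 1 erythroid genes (0.30). In none of the lymphocyte, macrophage, neutrophil, endothelial and tubule lists was a gene at 0 in all kidneys. The part of these cells in the Gimap values was not tested, and in bulk tissue fewer cells of a type and less RNA per cell cannot be told apart.

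**Figure D2:**
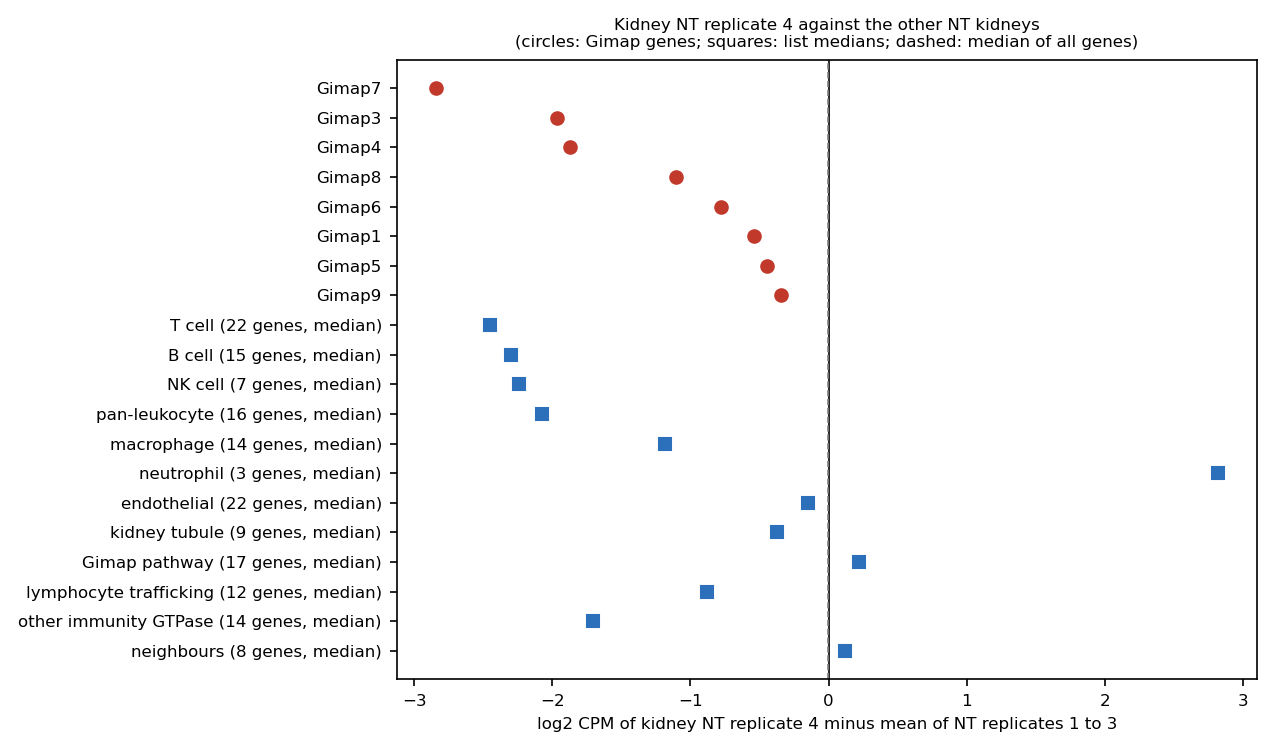
Log2 CPM of kidney NT replicate 4 minus the mean of kidney NT replicates 1 to 3 (x axis) for each Gimap gene (circles) and as the median of selected gene lists (squares, number of genes that passed the filter in brackets). Plasma cell, liver sinusoidal endothelial, platelet, erythroid, lymphoid stroma and hepatocyte lists are not drawn. All 8 Gimap genes lie below 0, as do the lymphocyte lists, while the 8 filtered chromosomal neighbours have a median of 0.12.

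Chromosomal neighbours of the cluster did not show this pattern. Of the 5 protein-coding genes on each side, 8 passed the filter, and 3 of them were lower in kidney NT replicate 4 than in the mean of the other NT kidneys (median 0.12). *AI854703* and *Zfp775*, next to *Gimap8*, had values of 0.48 and 0.40, and *Tmem176b* and *Tmem176a*, next to *Gimap3*, had 0.013 and -0.13. The lowest was *Aoc1*, which codes for a diamine oxidase, at -0.85. *1600015I10Rik* and *Doxl2* were at or near 0 reads in both tissues.

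The fitted change from NT to shFos kidneys depended on whether this library was included. With all 8 kidneys, the log2 fold change of shFos against NT was -0.77 (SE 0.37) for *Gimap3*, -0.29 (SE 0.61) for *Gimap7* and -0.25 (SE 0.15) for *Gimap1*. It was 0.35 (SE 0.18) for *Gimap5*, 0.30 (SE 0.14) for *Gimap9*, 0.28 (SE 0.25) for *Gimap8*, 0.10 (SE 0.37) for *Gimap4* and 0.09 (SE 0.17) for *Gimap6*. Without kidney NT replicate 4, all 8 values were lower. *Gimap3* was then at -1.06 (SE 0.11), *Gimap7* at -0.66 (SE 0.37) and *Gimap1* at -0.36 (SE 0.11). *Gimap4* and *Gimap6* changed sign, to -0.19 (SE 0.15) and -0.07 (SE 0.09), while *Gimap5* (0.25, SE 0.16), *Gimap9* (0.23, SE 0.14) and *Gimap8* (0.07, SE 0.14) stayed above 0. The SE fell for every member, and most for *Gimap3*, where NT replicates 1 to 3 ranged from 28.7 to 32.0 CPM and the 4 shFos kidneys from 12.7 to 16.7 CPM. The ratio of group means for *Gimap3* was 0.587 with all kidneys and 0.477 without NT replicate 4.

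With all kidneys, edgeR called 0 of the 8 members at an adjusted p under 0.05, beside 0 of all 14892 genes (0%), and 4747 genes (31.9%) and 0 members had an unadjusted p under 0.05. DESeq2 called 2582 of 19834 genes (13%) and 0 members. Without kidney NT replicate 4, *Gimap3* was 1 of 3 genes called among 15030 (0.02%), and 2 members had an unadjusted p under 0.05, beside 30.9% of all genes. Leaving out shFos replicate 1 instead gave 4126 calls among 15006 genes and 0 Gimap genes. Since these kidney values chose the family, nothing is read from these counts. Groups of all 8 kidneys did not overlap for 1 member, *Gimap5*, with shFos higher, beside 9.16% of all genes, and for 0 members with shFos lower, beside 8.04%. Without NT replicate 4 they did not overlap for *Gimap1* and *Gimap3*, with shFos lower, beside 12.6% of all genes, and for *Gimap5*, with shFos higher, beside 12.7%.

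**Figure D3:**
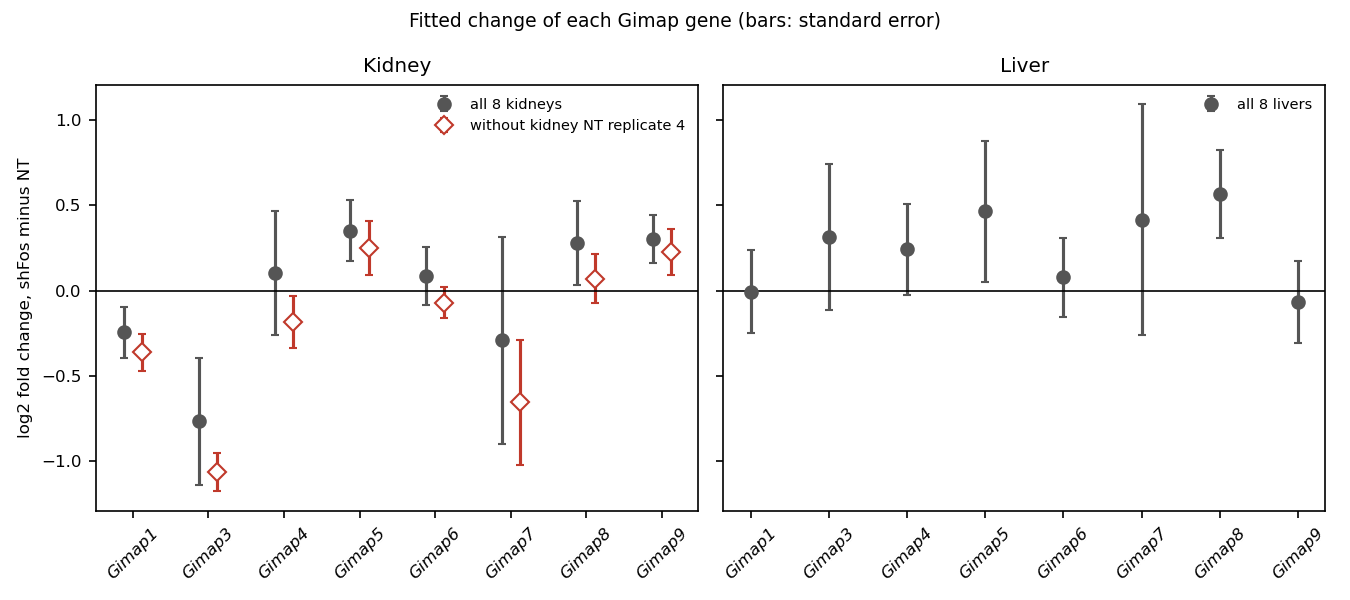
Log2 fold change of shFos against NT (y axis) with its standard error for each Gimap gene in kidney (left, with and without kidney NT replicate 4) and liver (right). *Gimap4* and *Gimap6* cross 0 in the kidney when kidney NT replicate 4 is left out, and in the liver 6 of 8 values are above 0 with wide errors.

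Ratios between members within a library do not depend on how libraries are scaled. The counts of *Gimap3* were 0.574, 0.519, 0.458 and 0.480 times those of *Gimap4* in kidney NT replicates 1 to 4 and 0.353, 0.283, 0.283 and 0.221 times in the shFos kidneys. The mean was 0.508 ± 0.0509 in NT and 0.285 ± 0.0539 in shFos kidneys (SD, n = 4 each), and the groups did not overlap. Kidney NT replicate 4, in which both genes were low, had a ratio within the range of the other NT kidneys. With other partners it did not. Its ratio of *Gimap3* to *Gimap6* was 0.299, against 0.635 to 0.743 in the other NT and 0.313 to 0.386 in the shFos kidneys. For *Gimap3* to *Gimap9* it was 0.665, against 1.93 to 2.31 and 0.787 to 0.982. Of the 7 pairs with *Gimap3*, 2 did not overlap between kidney groups. In the livers the ratio was 0.491 ± 0.143 in NT and 0.532 ± 0.0711 in shFos (SD, n = 4 each), with overlap. The ratio of *Gimap3* to *Gimap8* also did not overlap between kidney groups, at 0.680 ± 0.198 in NT and 0.351 ± 0.0376 in shFos (SD, n = 4 each). Of the 28 pairs of members, 6 did not overlap between NT and shFos kidneys and 2 did not between NT and shFos livers, beside 15.1% and 4.38% of all pairs of filtered genes with reads in every library of the tissue. The other 4 kidney pairs were *Gimap1* with *Gimap5*, *Gimap6*, *Gimap8* and *Gimap9*, and in all 6 the first-named gene was lower relative to the second in shFos. *Gimap3* and *Gimap4* were singled out after their values were seen, and the pairs share genes, so these ratios are a description.

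**Figure D4:**
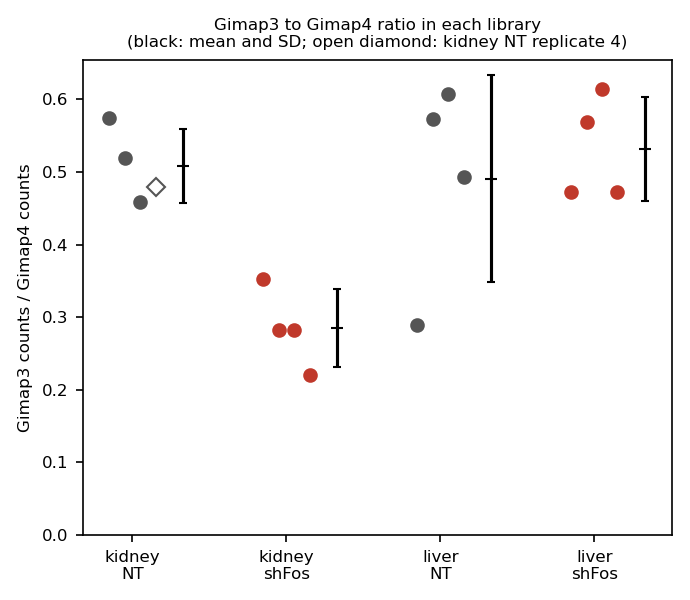
Counts of *Gimap3* divided by counts of *Gimap4* (y axis, from 0) in each library, by group (x axis), with the mean and SD in black. The 4 NT kidneys, kidney NT replicate 4 (open diamond) included, lie between 0.458 and 0.574 and the 4 shFos kidneys between 0.221 and 0.353.

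In the liver, the difference between shFos and NT passed the test for 0 of the 8 members. *Gimap8* had the largest difference, with 13.2, 8.37, 15.1 and 6.93 CPM in NT replicates 1 to 4 and 19.4, 15.3, 12.2 and 17.6 CPM in shFos replicates 1 to 4. Its means were 10.9 ± 3.87 and 16.2 ± 3.11 CPM (SD, n = 4 each), a log2 fold change of 0.57 (SE 0.26, adjusted p = 0.734 in edgeR's quasi-likelihood test), and the groups overlapped. *Gimap3* was 3.17, 8.54, 12.8 and 5.56 CPM in NT and 7.63, 12.2, 12.5 and 5.08 CPM in shFos livers. Its log2 fold change was 0.31 (SE 0.43, edgeR adjusted p = 0.864), and it was 0.052 without NT replicate 1 and 0.70 without NT replicate 3. *Gimap4* was 10.95, 14.9, 20.98 and 11.3 CPM in NT and 16.2, 21.5, 20.4 and 10.8 CPM in shFos livers, and *Gimap6* 7.12, 9.29, 12.3 and 9.74 CPM and 10.5, 11.8, 12.0 and 6.28 CPM. In both genes NT replicate 3 and shFos replicates 2 and 3 were the 3 highest livers and shFos replicate 4 was the lowest. *Gimap9* was 29.6, 12.4, 20.2 and 16.3 CPM in NT and 17.6, 19.5, 16.2 and 21.7 CPM in shFos livers, and its highest library was NT replicate 1, in which *Gimap3* was the lowest of all livers. *Gimap1* ranged from 2.33 to 4.63 CPM, *Gimap7* from 0.265 to 2.52 CPM and *Gimap5* from 0.346 to 1.41 CPM over the 8 livers. The low levels of the last 2 rested on 5 to 43 and 6 to 26 reads per library.

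Of the 8 members, 0 were called in the liver by edgeR, 0 had an unadjusted p under 0.05, and DESeq2 called 0. The background was 0 of 13144 genes called (0%), 886 genes with an unadjusted p under 0.05 (6.74%) and 28 of 18543 genes called by DESeq2 (0.151%). Fitted values were above 0 for 6 of 8 members, and their median was 0.28, beside -0.012 for all genes. The groups overlapped for all 8 members, where 2.79% of all genes did not overlap with shFos higher and 1.52% with shFos lower. Adjusted p-values of the members ran from 0.734 to 0.997. T cell markers of the livers summed to 27.6 to 46.8 CPM in NT and to 20.5 to 46.4 CPM in shFos, with medians of 34.3 and 30.8 CPM, while 15 of the 20 that passed the filter had values above 0 (median log2 fold change 0.28). Endothelial markers summed to 338 to 419 CPM in NT and to 395 to 468 CPM in shFos livers, and 18 of 22 had values above 0 (median log2 fold change 0.26). Pan-leukocyte markers summed to 144 to 540 CPM in NT and to 178 to 319 CPM in shFos livers, and 0 of 16 had values above 0 (median -0.39). Values were also above 0 for 2 of 12 B cell markers (median -0.46), 1 of 17 macrophage markers (median -0.68) and 0 of 8 neutrophil markers (median -1.51). For NK cell markers they were above 0 for 6 of 8 (median 0.28). Of the genes in these lists 0 were called, and their part in the Gimap values was not tested. The difference between the kidney and the liver effect contains the kidney values that chose the family, so nothing is read from its counts. In edgeR, 0 of 8 members and 0 of 15421 genes (0%) were called, and 0 members and 2482 genes (16.1%) had an unadjusted p under 0.05. DESeq2 called 281 of 20254 genes (1.39%) and 0 members. The value for *Gimap3* was -1.09 on the log2 scale (SE 0.60).

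Between tissues, levels differed for 6 of the 8 members, and *Gimap9* went against the others. With all 16 libraries scaled together, *Gimap5* was 3.94 ± 0.657 CPM in kidneys and 1.37 ± 0.537 CPM in livers (SD, n = 8 each), a log2 fold change of kidney against liver of 1.51 (SE 0.22, edgeR adjusted p = 1.13e-05). *Gimap6* was 28.3 ± 4.44 and 13.96 ± 3.14 CPM (log2 fold change 1.02, SE 0.15, edgeR adjusted p = 1.22e-05). *Gimap1* was 8.37 ± 1.26 and 4.94 ± 1.02 CPM (log2 fold change 0.75, SE 0.14, edgeR adjusted p = 1.28e-04). For these 3 genes every kidney was above every liver. The share of all genes whose tissues separate in either direction was not computed. *Gimap4* (34.9 ± 10.9 and 22.4 ± 6.52 CPM) and *Gimap8* (26.5 ± 6.46 and 19.1 ± 6.16 CPM) were higher in kidneys by 0.64 and 0.49 on the log2 scale (edgeR adjusted p = 0.0248 and 0.0259), with overlap. Both calls were lost with NT libraries alone, that of *Gimap4* also without liver shFos replicate 4, kidney NT replicate 2 or kidney NT replicate 3, and that of *Gimap8* also without liver NT replicate 2, liver NT replicate 4 or liver shFos replicate 3 (highest edgeR adjusted p = 0.156 and 0.104). *Gimap9* was 10.8 ± 1.74 CPM in kidneys and 27.1 ± 7.13 CPM in livers, a log2 fold change of -1.34 (SE 0.15, edgeR adjusted p = 4.47e-07), and every liver was above every kidney. *Gimap3* and *Gimap7*, whose values spread widely within tissues, had log2 fold changes of 0.15 (SE 0.30) and 0.14 (SE 0.48) and were not called. Over all 15421 genes, 39.3% were called higher in kidney and 34.8% higher in liver, so a call between these tissues is common. These tests took kidneys and livers as independent samples, and whether some share a mouse is not known. Kidney NT replicate 4, whose values chose the family, is among the 16 libraries. Without it 6 of 8 members were again called, beside 11546 of 15609 genes, and *Gimap4* was at 0.80 (edgeR adjusted p = 5.63e-04).

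The tissue values depend on scaling. TMM placed the median gene at 0.046, and scaling by library size alone placed it at 1.04, a shift of 0.996 on the log2 scale. Under that scaling *Gimap9* remained lower in kidneys (-0.33, edgeR adjusted p = 0.0327) and all other 7 members were higher there, *Gimap3* and *Gimap7* included. Upper-quartile scaling moved the median by 0.14 and a correction for GC content by -0.14, and under the latter *Gimap3* was at -0.0065. The count ratio of *Gimap9* to *Gimap6* within a library, which no scaling enters, was 0.322 to 0.469 in kidneys and 1.34 to 4.16 in livers. Ratios of *Gimap9* to the other 7 members were higher in livers, on average, by 2.82-fold (*Gimap3*) to 7.63-fold (*Gimap5*), and the tissues did not overlap for 5 of the 7, those to *Gimap3* and *Gimap7* being the exceptions. These ratios were computed after *Gimap9* had been seen to differ, so they are a description and were not tested. The share of all pairs of genes whose ratios do not overlap between the tissues was not computed. The count of *Gimap9* ratios without overlap therefore has no background to be set against.

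**Figure D5:**
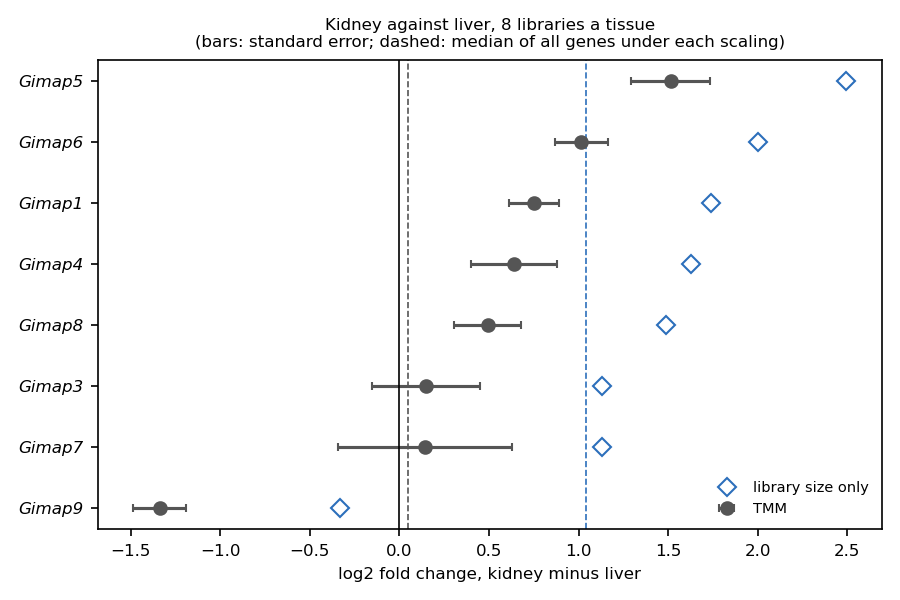
Log2 fold change of kidney against liver (x axis) for each Gimap gene with 8 libraries a tissue, under TMM scaling with standard errors (circles) and under scaling by library size alone (diamonds), with the median of all genes under each as a dashed line. *Gimap9* lies below 0 under both scalings and the other 7 above.

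Markers of the cells that could hold Gimap RNA differed between the tissues too. Of 22 endothelial markers, 17 were called higher in kidney and 1 higher in liver (median log2 fold change 0.94), and of 10 markers of liver sinusoidal endothelium 10 were called higher in liver (median -2.49). Of 22 T cell markers tested, 3 were called higher in kidney, 1 higher in liver and 18 were not called (median 0.52). Of 10 NK cell markers, 4 were called higher in liver and 0 higher in kidney (median -0.55), and of 16 B cell markers 2 were called higher in kidney and 1 in liver (median 0.046). Of 16 pan-leukocyte markers, 2 were called higher in kidney and 3 in liver (median -0.35), of 17 macrophage markers 1 and 13 (median -1.19), and of 8 neutrophil markers 0 and 8 (median -2.93). The family as a whole had a median of 0.57. The part of these cell types in the tissue values was not tested.

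Compared per length, the order of the levels also differed between tissues. In NT kidneys *Gimap4* was the highest, with a mean level of 26.0 ± 12.1 RPKM (CPM per kilobase of exon; SD, n = 4), followed by *Gimap6* (11.1 ± 2.66), *Gimap3* (9.45 ± 4.39), *Gimap8* (9.18 ± 2.92), *Gimap9* (8.31 ± 0.988), *Gimap1* (4.18 ± 0.724), *Gimap7* (1.43 ± 0.985) and *Gimap5* (1.18 ± 0.216 RPKM). Neighbours in this order overlapped from *Gimap4* down to *Gimap9*, and again for *Gimap7* and *Gimap5*. In NT livers *Gimap9* came first, with 12.0 ± 4.50 RPKM, and *Gimap4* next, with 7.90 ± 2.54 RPKM, and the ranges of the pair overlapped. *Gimap8* (2.95 ± 1.05), *Gimap3* (2.91 ± 1.60) and *Gimap6* (2.75 ± 0.606 RPKM) could not be ordered, and *Gimap1* (1.14 ± 0.247), *Gimap7* (0.501 ± 0.379) and *Gimap5* (0.196 ± 0.106 RPKM) were the lowest. With the length of the longest transcript in place of all exon bases, the kidney order was unchanged and *Gimap3* and *Gimap8* exchanged places in the liver.

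Genes of the processes in which Gimap proteins act were described as lists. Of 17 genes of the Gimap pathway list, which holds Bcl2 family, autophagy and *Gsk3b* genes, 17 passed the filter in both tissues. In the kidney 7 had fitted values above 0 and 10 below (median log2 fold change -0.050), in the liver 6 and 11 (median -0.043), and 0 were called in either. Between tissues 7 were called higher in kidney and 1 higher in liver. *Gabarap* and *Gabarapl1*, members of the protein family that *Gimap6* binds, were the highest, with 549 ± 50.5 and 782 ± 123 CPM in NT kidneys and 294 ± 30.2 and 161 ± 45.9 CPM in NT livers (SD, n = 4 each). In kidney NT replicate 4 the list had a median of 0.22 against the other NT kidneys, with 7 of 17 genes lower. The 12 genes of lymphocyte trafficking, of which *Ccr7* and *Il7r* are also in the T cell list, had 8 lower there (median -0.88), while the highest of them in kidneys, *Foxo1* and *Klf2*, had values of 0.56 and 0.015. Of the 12, 0 were called between treatments in either tissue (median -0.084 in kidney and -0.095 in liver).

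Other GTPases of immunity, the interferon-induced Gbp, Irg and Mx genes, shared the low values of kidney NT replicate 4 but had other peaks. All 14 were lower in that library than in the mean of NT replicates 1 to 3 (median -1.70), and their sum was 208 CPM against 366 to 1168. The high value of 1168 CPM was that of NT replicate 2, a library in which the 8 Gimap genes summed to 209 CPM, between the 197 and 220 CPM of NT replicates 1 and 3. In livers the list reached 2549 CPM in NT replicate 2, against 372 to 703 CPM in the other NT livers, and the Gimap sum there was 59.2 CPM, against 54.1 to 89.0. Of the 14 genes, 0 were called between treatments in either tissue, and 7 were called higher in liver and 0 higher in kidney, where of the Gimap genes 1 and 5 were.

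The genes whose pattern over the 8 kidneys lay closest to the mean of the Gimap genes, by the root mean square distance of centred log2 CPM, were *Casp1*, *Trpv2*, *Il16*, *1810034E14Rik*, *Sh3kbp1*, *Cnn2*, *Adamts9* and *P2rx7*, at 0.078 to 0.128. The median distance was 0.53 over 9244 candidate genes, and the members themselves lay at 0.163 (*Gimap6*) to 0.580 (*Gimap7*). *Casp1* codes for the protease that processes interleukin 1 beta, *Il16* for a cytokine that binds Cd4, and *P2rx7* for a receptor for extracellular ATP. The mean pattern ranged from -0.97 in kidney NT replicate 4 to 0.40 in kidney NT replicate 3. Over the 8 livers the closest genes were *Bcl2*, *Pea15a*, *Unc5b*, *Ifi203*, *Soga1*, *Epb41l2*, *Itpkb* and *Anxa2*, at 0.085 to 0.145, with a median of 0.48 over 9524 candidates. *Bcl2*, which codes for the founding inhibitor of mitochondrial cell death, was the closest of them and is in the Gimap pathway list. The members lay at 0.098 (*Gimap4*) to 0.736 (*Gimap7*) in the liver. All distances share the same 8 libraries and their depth, and no gene was on both lists.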

How the data were processed

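Total RNA of 8 kidneys and 8 livers was sequenced. Per the labels and the methods, the authors trimmed reads (Trimmomatic 0.39), aligned them to mm10 (HISAT2 2.2.1) and counted them per gene without regard to strand (HTSeq 0.12.4, annotation from the UCSC Table Browser). The deposited values are raw counts for 24984 genes, and 5 summary lines (no feature, 13.4% to 26.7% of reads) were left out. Libraries held 14194543 to 18300277 counted reads. The limit given for a count of 0 is that of 3 counts and covers counting error only, since PCR reads are not independent molecules. Positions and lengths came from GENCODE M21 (GRCm38, 98.2% of symbols matched) and promoters from RefSeq (GRCm38.p6).

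Counts were analysed with edgeR 4.0.16 under R 4.3.3 (TMM, filterByExpr, robust quasi-likelihood test, Benjamini-Hochberg adjustment over all genes tested, calls at an adjusted p under 0.05), each tissue alone, and the tissue difference and the interaction in 1 fit of all 16 libraries. Log2 CPM used a prior count of 2. Nothing in the labels says which libraries share a mouse, cage or run, so p-values measure the spread between these samples. Alternatives were DESeq2 1.42.0, other size factors, scaling by library size alone (added later), other filters, edgeR's newer dispersion, a GC correction (lowess, span 0.3), a replicate block, 1 fit of all libraries, NT libraries alone and each library left out. The fits were tested on simulated data with known changes.

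The members, the 14 marker lists and 3 other lists were chosen with earlier results of these data known and compiled from memory. The text names all members, *Fos*, the 5 nearest protein-coding neighbours on each side, the 2 genes of a list with the highest mean CPM in the tissue described, and the 8 genes per tissue closest to the mean centred log2 CPM of the members, among filtered genes whose SD was at least 0.5 times that of this mean pattern. Not every gene under this rule is printed.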

Additional observations from a re-analysis of the deposited data

Results flagged for a closer look

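Within groups of 4 libraries, 10 of 96 sets of values (32 for the Gimap genes and 64 for marker and gene lists) had 1 library far from the other 3 by Dixon's test, which chance alone gives in about 1 of 20 sets. The count cannot be set against chance, because the family was chosen for the values of kidney NT replicate 4, and the 3 sets that name this library (*Gimap1*, *Gimap3* and the endothelial markers) only restate or accompany what chose it. No cause was tested for any of the 10.

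3 of these were Gimap genes. *Gimap1* was 9.54 CPM in kidney NT replicate 4 and 13.7 to 14.3 CPM in the other NT kidneys, and *Gimap3* was 7.54 CPM in that library and 28.7 to 32.0 CPM in the others. *Gimap1* was 4.63 CPM in liver NT replicate 3 and 3.03 to 3.29 CPM in the other NT livers. The other 6 Gimap genes were also lowest in kidney NT replicate 4, but the spread of the other NT kidneys kept them below the limit.

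Among the lists, the summed endothelial markers were 1114 CPM in kidney NT replicate 4, against 1354 to 1389 CPM in the other NT kidneys. Genes of lymphocyte trafficking summed to 241.5 CPM in kidney NT replicate 3, against 206 to 208 CPM. Other immunity GTPases summed to 867 CPM in kidney shFos replicate 3, against 356 to 426 CPM, and to 2549 CPM in liver NT replicate 2, against 372 to 703 CPM. B cell markers summed to 113.7 CPM in liver NT replicate 3, against 14.6 to 27.6 CPM, in the library with the high *Gimap1*. Neutrophil markers summed to 54.6 CPM in liver shFos replicate 1, against 10.1 to 15.0 CPM, and erythroid markers to 31.4 CPM in liver shFos replicate 3, against 8.85 to 12.6 CPM.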

How the results depend on the processing

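Counts of Gimap genes called were 0 in the liver and 0 for the interaction under every alternative, with libraries left out included. In the kidney the count was 0 under every alternative except without kidney NT replicate 4, so that with libraries left out it ranged from 0 to 1. This is a description since these kidney values chose the family. Between tissues it ranged from 5 to 6 with a library left out, beside 11243 to 11620 calls over all genes. With NT libraries alone it was 4, beside 8931 of 14875 genes. With library size alone it was 8, beside 13743 of 15421 genes, so that most genes were called there. It was 6 otherwise, beside 11427 of 15421 genes in the main fit. Over all genes, kidney calls rose from 0 to 2582 with DESeq2, to 3 with no filter on low counts and to 994 in the fit of all 16 libraries, and ranged from 0 to 4126 with a library left out. Liver calls rose from 0 to 28 with DESeq2 and stayed at 0 with any library left out.

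Log2 fold changes that changed sign in the kidney were those of *Gimap4* (-0.058 with the GC correction, -0.0021 with library size alone, -0.19 to 0.27 with a library left out), *Gimap6* (-0.00095, -0.013 and -0.072 to 0.18) and *Gimap7* (-0.66 to 0.14 with a library left out). In the liver they were those of *Gimap1* (0.0031 in the fit of all libraries, -0.094 to 0.16 with a library left out), *Gimap6* (-0.051 to 0.25) and *Gimap9* (-0.24 to 0.19). Between tissues they were those of *Gimap3* (-0.0065 with the GC correction) and *Gimap7* (-0.055 to 0.37 with a library left out). The cause was not tested.

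The replicate block gave 0 Gimap calls in kidney, liver and the interaction and 6 between tissues, and the lowest size of the *Gimap3* change in the kidney (-0.61). Within a tissue, same-numbered NT and shFos libraries did not deviate together (correlations of deviations from -0.17 to 0.12 in kidneys and -0.26 to 0.039 in livers). In either tissue 0 of 4 NT libraries correlated best with their own number, so the numbers were not taken to pair NT with shFos samples. No fit paired kidneys with same-numbered livers alone, and the main tests between tissues treated them as independent. The replicate block joined all libraries with the same number, NT and shFos together, so it was not a block by mouse. If same-numbered organs came from 1 mouse, the p-values between tissues ignore that pairing. Other immunity GTPases were highest in NT replicate 2 among the NT libraries of both tissues (1168 and 2549 CPM). The mean Gimap pattern rose from NT replicate 4 through 1 and 2 to 3 in both tissues, but the shFos orders differed. B cell, pan-leukocyte and lymphocyte trafficking sums were highest in NT replicate 3 of both tissues. NK cell and erythroid sums were highest in NT replicate 2 of both, and neutrophil and lymphoid stroma sums in NT replicate 4. T cell, macrophage and both endothelial lists were highest in NT replicate 2 in kidneys and NT replicate 3 in livers. For the remaining lists the highest NT replicate also differed. Whether same-numbered kidneys and livers share a mouse was not tested. At this depth, *Gimap5* and *Gimap7* rested on 5 to 43 reads in livers, which limits the precision of their values.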
